A study of Danio rerio with 4 samples.

Results

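The genes described here encode the enzymes and readers of the main repressive histone marks, namely the Polycomb genes *ezh2*, *eed*, *suz12a*, *suz12b* and *rnf2* and the H3K9 silencing genes *setdb1a*, *setdb1b*, *suv39h1a*, *suv39h1b* and *cbx5*. They were chosen by name, and each of the 10 matched 1 RefSeq mRNA among the 15171 rows of the deposited gene table. The study sequenced ribosome-depleted RNA from whole zebrafish larvae at 5 days post fertilization (dpf). The mutant libraries came from larvae homozygous for the hi272 allele of *uhrf1*, and the sibling libraries from phenotypically normal clutch mates that were a mixture of wild types and heterozygotes. Each library pooled 10 larvae sorted by phenotype, there were 2 mutant and 2 sibling libraries, and 2 clutches were used without a label tying a clutch to a library.

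Uhrf1 reads hemimethylated DNA together with methylated H3K9 and brings the maintenance methyltransferase Dnmt1 to newly replicated DNA. Polycomb repressive complex 2 (PRC2) places methyl groups on H3K27 through Ezh2, held together by Suz12 and stimulated by Eed, and PRC1 ubiquitinates histone H2A through Rnf2. The H3K9 methyltransferases Setdb1 and Suv39h1 act on retroelements and on constitutive heterochromatin in mammals, and the HP1 protein Cbx5 binds the mark they leave. The comparison asks whether the transcripts of these parallel silencing systems differ in larvae that lack normal Uhrf1.

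Gene counts came to 9100665 and 3299449 in mutants 1 and 2, against 4981004 and 2996676 in siblings 1 and 2. Levels below are CPM, counts relative to the library total after TMM scaling, and folds are mutant over sibling. *uhrf1* itself stood at 33.3 and 24.2 CPM in the mutants and at 21.4 and 46.8 CPM in the siblings. The groups overlapped, so this transcript does not check the labels, and "mutant" means a library labelled so. Markers of muscle, neurons, skin, liver, heart, blood and eye were all detected. The mutant over sibling ratio of mean summed levels was 0.63 for liver, 0.60 for red blood cells, 0.65 for neurons and 0.66 for skin. It was 0.65 for macrophages, 1.11 for muscle and 1.06 for heart. Single markers did not all follow these sums: 1 of 3 skin, 1 of 3 heart and 3 of 4 muscle markers had a log2 fold change above 0. For neurons, liver, red blood cells and macrophages 0 of the tested markers did. Heart markers summed to 73.5 and 79.1 CPM in the mutants, between the siblings at 95.6 and 48.4 CPM. The summed level of 4 exocrine pancreas markers was 781 and 117 CPM in the mutants, against 10298 and 4489 CPM in the siblings. Lens markers summed to 75.2 and 67.9 CPM in the mutants and 686 and 361 CPM in the siblings. Photoreceptor markers summed to 1753 and 2210 CPM in the mutants and 3380 and 4315 CPM in the siblings. Of the 4 photoreceptor markers tested, 1 had a log2 fold change above 0. Neutrophil markers summed to 86.4 and 105 CPM in the mutants and 32.2 and 26.7 CPM in the siblings. For 2 of the 3 neutrophil markers both mutants were above both siblings, against 28.0% of all genes. The part of these shifts in the values below was not tested. In whole larvae, fewer cells of a type and less RNA per cell cannot be told apart, and this holds for every value below.

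No silencing factor passed the test. Of the 10 genes, 9 had enough counts to be tested, and edgeR's quasi-likelihood test with Benjamini-Hochberg adjustment over all 12786 genes called 0 higher and 0 lower at an adjusted p of 0.05. DESeq2 and limma-voom also called 0. By edgeR, 1 of the 9 genes, *eed*, had an unadjusted p under 0.05, against 2977 of all 12786 genes. Among all genes tested, 4.58% were called higher and 3.79% lower, 8.37% in all. The median log2 fold change of the 9 genes was 0.19, with 6 above 0, against a median of 0.0036 for all genes, of which 50.3% were above 0. For 3 of the 9 genes the lower mutant exceeded the higher sibling, against 28.0% of all genes, and for 1 gene the higher mutant fell short of the lower sibling, against 26.9%.

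The estimates nevertheless spread from 0.93 to -0.35 on the log2 scale, and *eed*, *ezh2* and *suz12a* had both the 3 highest estimates and the 3 largest standard errors (SE). The tested H3K9 genes lay between 0.36 and -0.054, and the Polycomb genes *suz12b* and *rnf2* stood at -0.15 and -0.35.

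**Figure D1:**
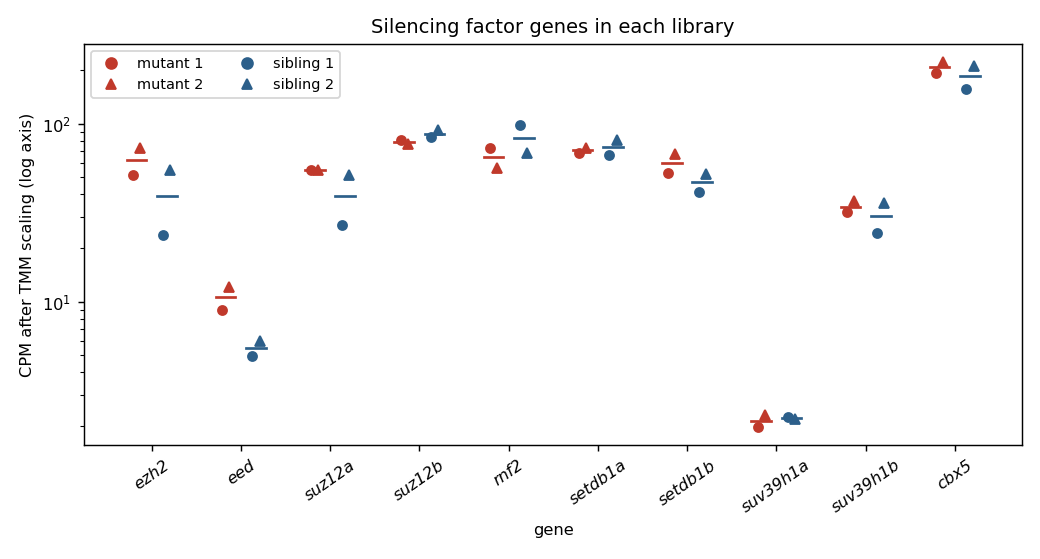
Level of each silencing factor gene in each library, in CPM after TMM scaling on a log axis, with mutants in red left of siblings in blue and short bars at the group means (n = 2 each). Sibling 1 lies well below the other 3 libraries for *ezh2* and *suz12a*, both mutants lie above both siblings for *eed*, and the libraries lie close together for *setdb1a* and *suz12b*.

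Among the PRC2 core genes, *eed*, whose product binds trimethylated H3K27 and stimulates the enzyme, had the largest estimate. It stood at 9.03 and 12.1 CPM in the mutants and at 4.96 and 5.97 CPM in the siblings. Both mutants were above both siblings, and the siblings differed little. Its log2 fold change was 0.93 (SE 0.38, adjusted p = 0.170 by edgeR), which is a 1.91-fold estimate with a 95% interval of 1.06 to 3.42, and it lay above that of 92.5% of all genes. The interval is for this gene alone, without adjustment for the number of genes. The *eed* values rest on 82 and 42 reads in the mutants and 22 and 19 in the siblings. In the fits that left out 1 library the estimate ranged between 0.73 and 1.13, and none of them called it.

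*ezh2*, the methyltransferase of PRC2, had 51.4 and 72.8 CPM in the mutants, against 23.7 and 55.0 CPM in the siblings. Sibling 2 lay above mutant 1, so the groups overlapped, and sibling 1 was the low library. The log2 fold change was 0.66 (SE 0.35, adjusted p = 0.296 by edgeR), or 1.58-fold with a 95% interval of 0.92 to 2.73. Here the estimate moved with the library left out, most with the choice of sibling. Without sibling 2 the log2 fold change was 1.37, and without sibling 1 it was 0.15, each resting on a lone sibling library. It was 0.89 without mutant 1 and 0.40 without mutant 2, each resting on a lone mutant library. The 2 siblings differed 2.32-fold in *ezh2*, a larger gap than for 96.7% of all genes.

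*suz12a*, a copy of the PRC2 scaffold gene, showed the same order of siblings. Its levels were 54.6 and 54.9 CPM in the mutants and 27.1 and 51.3 CPM in the siblings. The mutants were nearly equal and sat just above sibling 2, while sibling 1 was 1.89-fold below sibling 2. Its log2 fold change was 0.50 (SE 0.29, adjusted p = 0.336 by edgeR). It was 1.01 without sibling 2 and 0.088 without sibling 1, each resting on a lone sibling library.

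The other scaffold copy, *suz12b*, did not share that pattern. It had 80.9 and 76.5 CPM in the mutants, against 83.7 and 91.8 CPM in the siblings. Both mutants lay below both siblings by a small margin. The log2 fold change was -0.15 (SE 0.20, adjusted p = 0.695 by edgeR), and the 95% interval of the fold, 0.66 to 1.22, was the narrowest of the PRC2 genes. Summed over *ezh2*, *eed* and both *suz12* genes, the PRC2 core came to 196 and 216 CPM in the mutants, against 139 and 204 CPM in the siblings.

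*rnf2*, the ubiquitin ligase of PRC1, was the gene with the lowest estimate. It stood at 73.3 and 56.7 CPM in the mutants and at 98.1 and 67.9 CPM in the siblings. The groups overlapped, and sibling 1, the low library for *ezh2*, was the high one here. Its log2 fold change was -0.35 (SE 0.24, adjusted p = 0.429 by edgeR), a 0.78-fold estimate with a 95% interval of 0.54 to 1.14, and it was -0.061 without sibling 1.

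Of the H3K9 methyltransferase genes, *setdb1b* gave the highest estimate. Setdb1 enzymes are recruited by zinc finger repressors in mammals, and zebrafish carry 2 gene copies. *setdb1b* had 52.8 and 67.6 CPM in the mutants and 41.5 and 51.9 CPM in the siblings. The groups just failed to overlap, with mutant 1 next to sibling 2. Its log2 fold change was 0.36 (SE 0.23, adjusted p = 0.382 by edgeR). *setdb1a* had 68.7 and 73.3 CPM in the mutants, against 67.0 and 80.5 CPM in the siblings. Both mutants fell inside the range of the siblings, and the log2 fold change was -0.054 (SE 0.21, adjusted p = 0.909 by edgeR), with a 95% interval of the fold of 0.70 to 1.33.

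The Suv39h1 genes encode the enzymes of pericentric H3K9 trimethylation in mammals. *suv39h1b* stood at 31.8 and 36.5 CPM in the mutants and at 24.4 and 35.8 CPM in the siblings, overlapping groups in which sibling 1 was again the lowest library. Its log2 fold change was 0.19 (SE 0.26, adjusted p = 0.716 by edgeR). *suv39h1a* was too sparsely counted for the test, with 18 and 8 reads in the mutants and 10 and 7 in the siblings. These are 1.98 and 2.30 CPM in the mutants and 2.25 and 2.20 CPM in the siblings. The ratio of its summed counts, scaled by library size, was 0.93 with an exact 95% counting interval of 0.48 to 1.82, which leaves out the spread between pools.

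The HP1 gene *cbx5*, the reader of H3K9 methylation, had 192 and 221 CPM in the mutants, against 157 and 211 CPM in the siblings. Sibling 2 lay between the mutants. The log2 fold change was 0.17 (SE 0.24, adjusted p = 0.730 by edgeR), and the 95% interval of the fold was 0.77 to 1.64. For the 6 tested genes other than *ezh2*, *eed* and *suz12a*, the intervals of the fold all lay between 0.54 and 1.84. For those 3 PRC2 genes the upper limits were 2.73, 3.42 and 2.20, so a 2-fold difference lies within their intervals. Without sibling 1 the median log2 fold change of the 9 genes was -0.038, and without sibling 2 it was 0.48.

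**Figure D2:**
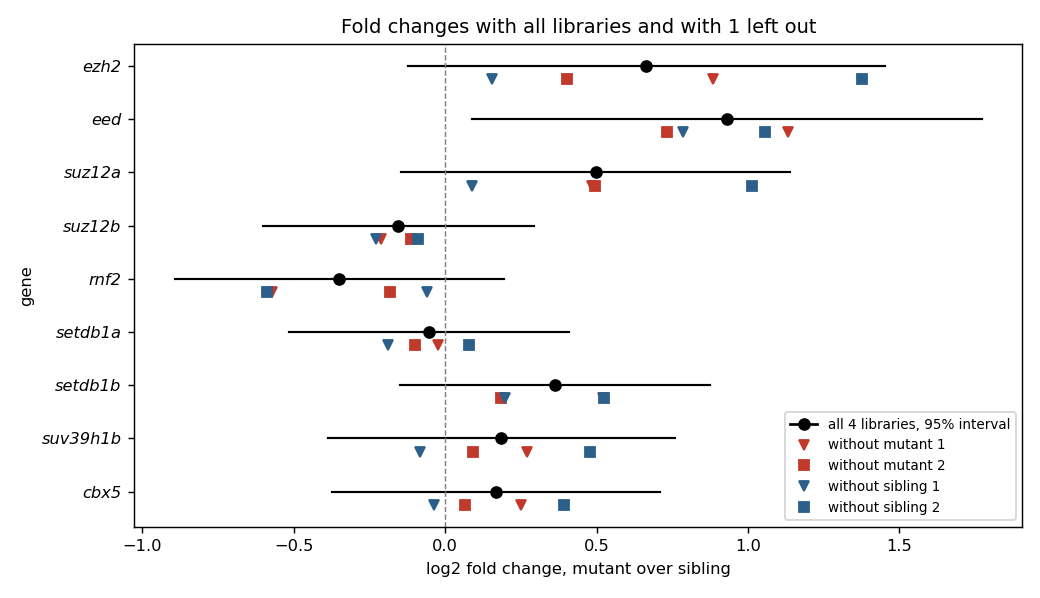
Log2 fold change, mutant over sibling, of the 9 genes tested (black points, all 4 libraries, with 95% intervals of each gene alone), and below each the estimate with 1 library left out (coloured symbols). For *ezh2* the estimate is 0.15 without sibling 1 and 1.37 without sibling 2, whereas those of *suz12b* keep between -0.23 and -0.089.

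Copies of the same gene were also compared inside each library, where scaling has no part. The size of such a ratio depends on transcript length, and its difference between groups does not. *suz12a* over *suz12b* was 0.675 and 0.718 in the mutants, against 0.323 and 0.558 in the siblings. The groups did not overlap, with a mean log2 difference of 0.71, mutant minus sibling, which was 0.32 without sibling 1 and 1.11 without sibling 2. *setdb1a* over *setdb1b* was 1.30 and 1.09 in the mutants and 1.61 and 1.55 in the siblings. This ratio did not overlap either, in the opposite direction (-0.41 on the log2 scale). Leaving out each library in turn gave differences between -0.54 and -0.28. *suv39h1a* over *suv39h1b* was 0.0623 and 0.0630 in the mutants and 0.0926 and 0.0614 in the siblings, which overlap.

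The ratio of *ezh2* to *ezh1*, a second PRC2 methyltransferase gene, was added after the values were seen. It was 1.25 and 1.79 in the mutants, against 0.382 and 1.54 in the siblings, overlapping groups with sibling 1 far below the rest. Non-overlap was common for such ratios: among 1279 pairs of symbols that differ only in a final a or b, 53.2% did not overlap. The *suz12* difference was larger in size than 71.5% of those pairs and the *setdb1* difference larger than 48.8%. With 2 against 2 libraries the smallest two-sided exact permutation p is 0.333, so that test cannot pass 0.05, and the ratios are given as values with no test. Reads shared by close copies may have been split or dropped in the counting, and identity between copies was not measured.

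**Figure D3:**
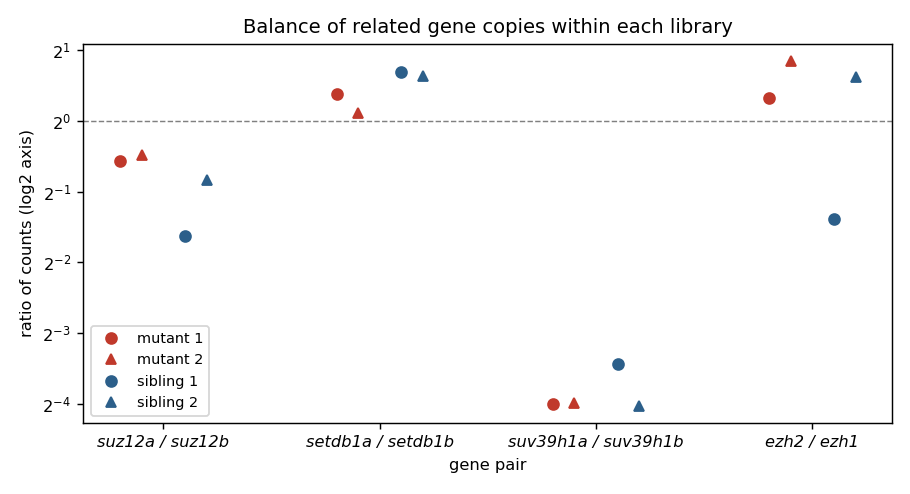
Ratio of counts of 2 related genes within each library, on a log2 axis, for mutants (red) and siblings (blue). Mutants lie above siblings for *suz12a* over *suz12b* and below them for *setdb1a* over *setdb1b*, and the groups overlap for the other pairs.

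Over the 6 lists of partners and opposing enzymes, 2 of 56 genes tested were called higher (3.57%) and 0 lower, against 4.58% higher and 3.79% lower among all genes. Of 7 further PRC2 genes tested, 1 rose, *phf19*, whose Polycomb-like product binds methylated H3K36 in mammals and joins PRC2. It had 25.6 and 29.0 CPM in the mutants, against 10.8 and 12.9 CPM in the siblings (log2 fold change 1.21, SE 0.27, adjusted p = 0.0233 by edgeR). The groups did not overlap. Leaving out mutant 1 ended the call (adjusted p = 0.0514 by edgeR), as did leaving out mutant 2 (adjusted p = 0.116 by edgeR). The median of this list was 0.32 on the log2 scale, with 6 of 7 genes above 0 (85.7%, against 50.3% of all genes). *rbbp4*, a histone-binding subunit of PRC2 and of other complexes, was named after its values were seen, since it passed in the fit without sibling 2. It did not pass without mutant 1 or without mutant 2. With all libraries it had 137 and 162 CPM in the mutants and 62.5 and 119 CPM in the siblings (adjusted p = 0.171 by edgeR). Here too sibling 1 was the lowest library.

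Of 21 further PRC1 genes tested, 1 rose (4.76%, against 4.58% of all genes). The gene called was the polyhomeotic gene *phc2b*, whose product lets PRC1 complexes cluster. It stood at 51.3 and 59.2 CPM in the mutants, against 19.4 and 27.4 CPM in the siblings (log2 fold change 1.25, SE 0.25, adjusted p = 0.0121 by edgeR). The groups were well apart, and the call was lost without mutant 2 (adjusted p = 0.0568 by edgeR). *cbx7a*, a chromodomain reader of H3K27 methylation, was singled out after its values were seen. It had 246 and 216 CPM in the mutants and 132 and 51.9 CPM in the siblings. Its log2 fold change of 1.32 (SE 0.37) missed the threshold in edgeR (adjusted p = 0.0539) and passed in DESeq2 (adjusted p = 0.00747). The siblings differed more in this gene than in 97.8% of all genes. Without sibling 1, the sibling nearer the mutants, the edgeR log2 fold change was 2.15. That value rests on a lone sibling library, sibling 2, the lower one at 51.9 CPM. The PRC1 median was 0.058, with 12 of 21 genes above 0 (57.1%, against 50.3% of all genes).

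The other tested H3K9 genes, the HP1 partners and the demethylases gave 0 calls by edgeR, and likewise by limma-voom and by DESeq2. By edgeR, 8.37% of all genes tested were called in either direction. Among 11 further genes of H3K9 methylation and the HUSH silencing complex, the median was 0.0040. Of these 11, 1 had an unadjusted edgeR p under 0.05, against 2977 of all 12786 genes tested. That gene was *morc3a*, an ATPase gene, with a log2 fold change of 0.53 (SE 0.23, adjusted p = 0.199 by edgeR), followed by the methyltransferase gene *setdb2* (-0.73, SE 0.48, adjusted p = 0.399 by edgeR). The 6 genes of the HP1 family and its partners had a median of 0.18, and 1 had an unadjusted p under 0.05. It was *chaf1a*, which encodes a subunit of the replication-coupled histone chaperone CAF-1, at 10.1 and 15.8 CPM in the mutants and 6.09 and 5.97 CPM in the siblings (adjusted p = 0.117 by edgeR). The HP1 gene *cbx3a* had a log2 fold change of 0.46 (SE 0.21, adjusted p = 0.226 by edgeR).

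Of 6 H3K9 demethylase genes, 0 had an unadjusted edgeR p under 0.05, against 2977 of all 12786 genes tested. The median of these 6 genes was -0.064. *phf2* (-0.29, SE 0.20) and *kdm4c* (-0.28, SE 0.24) had the lowest p. The 5 genes of H3K27 demethylation and H2A deubiquitination also had 0 under 0.05 unadjusted, with a median of 0.18. Their lowest p belonged to the deubiquitinase gene *usp16* (0.29, SE 0.26) and the demethylase gene *kdm6bb* (0.23, SE 0.26).

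Markers of proliferating cells stood beside the PRC2 values. Of 14 such markers tested, 7 rose (*pcna*, *mcm2*, *mcm3*, *mcm4*, *mcm5*, *mcm6* and *rrm1*) and none was lower. Among all genes tested, 4.58% were called higher and 3.79% lower. The list was chosen with earlier results of these data known, and the median log2 fold change of the markers was 1.06. Their summed level was 1229 and 1654 CPM in the mutants, against 478 and 862 CPM in the siblings, and no marker was at 0 in any library. Sibling 1 had the lowest sum. It was also the lowest library for *ezh2*, *eed* and *suz12a*, and likewise for the H3K9 genes *setdb1a*, *setdb1b*, *suv39h1b* and *cbx5*. Sibling 1 was, however, the highest library for *rnf2* and lay above both mutants for *suz12b*. The share of all genes with sibling 1 lowest is not given here. Without sibling 2, 12 of the markers rose, and without mutant 2, 2 did. For 12 of the 14 markers neither sibling reached either mutant, against 28.0% of all genes. Of the silencing factors tested, *eed*, *suz12a* and *setdb1b* had this order, and *ezh2*, with sibling 2 above mutant 1, did not. The part of proliferating cells in the values of *ezh2*, *eed*, *suz12a*, *phf19* and *rbbp4* was not tested.

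**Figure D4:**
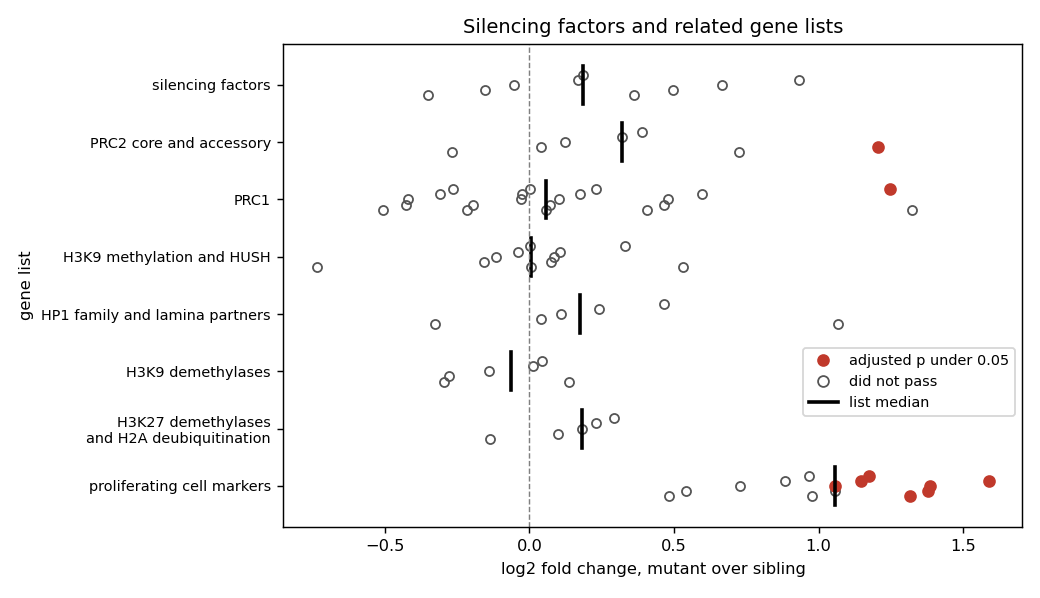
Log2 fold change, mutant over sibling, of every tested gene in the silencing factor set and in each related list, with filled red points for genes past an adjusted p of 0.05 in edgeR and black bars at the list medians. The silencing factors hold no filled point, the PRC2 and PRC1 partners hold 1 each (*phf19* and *phc2b*), and 7 of the 14 proliferating cell markers are filled.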

How the data were processed

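The deposited table holds raw counts per RefSeq accession for 4 libraries. Build GRCz10 and the tools Bowtie2 2.1.0, DESeq2 and HTSeq are named in the submitters' processing notes, with no role or order. The annotation, strand setting and treatment of multiply mapped reads were not given in the sources used here. Accessions were named with a RefSeq table of assembly GRCz12tu (14472 of 15171 rows matched), used for names only. For symbols with several rows (293), the listed genes and the pairs of copies used the row with most counts. The fit, its adjustment and the shares of all genes ran over rows, so a symbol can count more than once there. No gene sequences were used here, so a promoter motif search was not run.

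Counts were fitted in R 4.3.3 with edgeR 4.0.16 (filterByExpr, TMM, glmQLFit, glmQLFTest, no block) and adjusted by the Benjamini-Hochberg method. The standard error is the log2 fold change over the square root of F. One read was worth 0.110 and 0.288 CPM in mutants 1 and 2 and 0.225 and 0.314 CPM in siblings 1 and 2. Counting intervals cover counting error only. Separate cultures or parents are not stated for the pools beyond the 2 clutches, so a p-value reflects only how these pools vary. Same-group libraries were not duplicates (chi-square per degree of freedom 13.6 for mutants and 15.7 for siblings).

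The genes and lists were chosen with earlier results of these data known. Listed symbols without a row were left out (10 of 10 silencing genes matched, 7 of 9 PRC2, 21 of 30 PRC1, 12 of 22 H3K9, 6 of 9 HP1, 6 of 13 H3K9 demethylase, 5 of 9 H3K27 demethylase and 14 of 16 proliferation symbols). Genes named were *uhrf1*, the 10 genes, and in each list those past the threshold or, with none, the 2 of lowest p. Outside this rule, *ezh1*, *rbbp4* and *cbx7a* were named after values were seen. Alternatives were DESeq2 1.42.0, limma-voom (limma 3.58.1), other scalings and count filters, the replicate number as a block, and leaving out each library.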

Additional observations from a re-analysis of the deposited data

How the results depend on the processing

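Of 98 values of the silencing factor genes under the 11 alternatives, 91 kept their direction and their side of the threshold, 3 passed it and 4 changed sign. The sign changes were in genes near 0: *setdb1a* was 0.011 with library totals only and ranged from -0.19 to 0.080 with 1 library left out, *suv39h1b* from -0.084 to 0.48 and *cbx5* from -0.038 to 0.39. *uhrf1* ranged from -0.69 to 0.44. The number of these genes called higher was 0 to 2 with 1 library left out, against 0 with all 4. Left-out libraries moved the count of all genes from 585 higher (333 to 805) and 485 lower (243 to 754), that of PRC2 partners from 1 (0 to 2), of PRC1 partners from 1 (0 to 2) and of proliferation markers from 7 (2 to 12). PRC1 partners gave 2 calls with DESeq2, 2 with library totals only and 2 without a count filter. The ratio of *ezh2* to *ezh1* ranged from -0.036 to 1.97 and that of the *suv39h1* copies from -0.56 to 0.029 on the log2 scale. Where 1 library was left out, the lone library of its group was assumed to vary like the others. The causes were not tested.

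The replicate numbers in the titles are not stated to mark a clutch, and 2 pairs cannot show pairing (correlation of deviations 0.24). With the replicate number as a block, 1366 genes were higher and 1165 lower, 1 silencing factor was higher (*ezh2*, log2 fold change 0.75, adjusted p = 0.0102 by edgeR), 2 PRC2 and 2 PRC1 partners were higher, 1 HP1 partner was higher (*chaf1a*), 1 H3K9 gene was lower (*setdb2*) and 13 proliferation markers were higher. With no count filter, *suv39h1a* had a log2 fold change of -0.077 (SE 0.65, adjusted p = 0.966 by edgeR). Its 43 reads in all limit it to the counting interval given above.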
